A study of Rattus norvegicus with 6 samples.

Results

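The 2 mature miRNAs cut from the rat miR-21 hairpin, rno-miR-21-5p and rno-miR-21-3p (miR-21-5p and miR-21-3p here), were followed in fibroblasts and in the vesicles they release. They were taken by name as 2 of the 1071 rows of the deposited tables, and both were among the 328 rows with enough counts to be tested. The cells were fibroblasts of the rat sciatic nerve, wild type and untreated in all groups. The EV group held 3 libraries of small RNA from extracellular vesicles of these cells, called exosomes in the labels, and the Intracellular group held 3 libraries of RNA from inside the cells, the controls of the design. The strain and age of the rats, the way the vesicles were collected, the culture medium and the origin of the replicates (separate cultures or one) are not given in the labels. The p-values therefore describe only how these libraries vary, and that variation may be technical.

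A miRNA hairpin is cut into a duplex of its 5' and 3' arms, and in most cases 1 strand, the guide, is kept by an Argonaute protein while the other, the passenger, is degraded. The guide finds its targets mainly through its seed, bases 2 to 8. miR-21-5p is the guide of the miR-21 hairpin and is among the best known miRNAs of activated fibroblasts. Signalling by TGF-beta raises it, and it represses Pdcd4 and Spry1, which restrain growth signalling. The passenger, miR-21-3p, has been described as enriched in the exosomes of cardiac fibroblasts. The questions put to the data were therefore how much of each arm was found in vesicles and cells of nerve fibroblasts, and whether the ratio of the arms differed.

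The sequences are shown because the arms differ in seed, base composition and first base, which is what tells their reads apart. They were taken from RefSeq (GRCr8), where both arms were matched by name and were the same as the sequences in the deposited tables. Capitals mark the seed.
miR-21-5p: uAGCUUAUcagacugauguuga
miR-21-3p: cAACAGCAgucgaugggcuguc
In the whole hairpin, given next, capitals mark the 5p arm and then the 3p arm.
Mir21: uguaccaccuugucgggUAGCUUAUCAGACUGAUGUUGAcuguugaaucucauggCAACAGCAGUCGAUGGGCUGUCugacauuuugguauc
The hairpin of 92 bases lies at chr10:71902600-71902691 on the minus strand of GRCr8, a later build than the one named for the counts. In the RefSeq gene table no gene overlapped it, and its neighbours were Vmp1 and Tubd1.

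Both arms were 22 bases long, so that their counts need no correction for length. The 5p arm began with U and held 36.4% G and C, and the 3p arm began with C and held 59.1%, while the median of the 290 known miRNAs tested was 45.8%. In a predicted fold of the hairpin (RNAfold, -42.6 kcal per mol), 19 bases of the 5p arm paired with the 3p arm. The first 4 bases of each arm were paired, with 2 G-C pairs among them in both. Neither seed occurred in another of the 659 rows with a sequence, nor did bases 2 to 7 alone. The nearest other sequence differed from miR-21-5p by 7 changes (miR-101a-5p) and from miR-21-3p by 8 (let-7f-2-3p), so that no near-identical row was found among those with a sequence. The other rows are predicted miRNAs with no sequence listed.

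miR-21-5p was the second most abundant miRNA in each of the 6 libraries, after miR-143-3p and before let-7i-5p. It was counted 9943, 13850 and 12350 times in EV replicates 1, 2 and 3, and 305362, 479085 and 1313520 times in Intracellular replicates 1, 2 and 3. As a level in CPM (counts scaled to 1000000 per library), it reached 122434, 131183 and 133761 in the EV libraries. In the Intracellular libraries it reached 166044, 144604 and 148265 CPM, with replicate 1 the highest. The groups did not overlap: the highest EV library lay below the lowest Intracellular one. Its share of all counts was 12.9% ± 0.594 in the vesicles and 15.3% ± 1.15 in the cells (SD, n = 3), with a 2-sided exact permutation p of 0.1, the smallest that 3 against 3 samples allow. A CPM is a share of a library, so less miR-21-5p per vesicle and more of other RNAs cannot be told apart. Of the tested miRNAs, 3.66% had all EV levels below all Intracellular ones, and 45.4% had no overlap in one direction or the other.

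**Figure D1:**
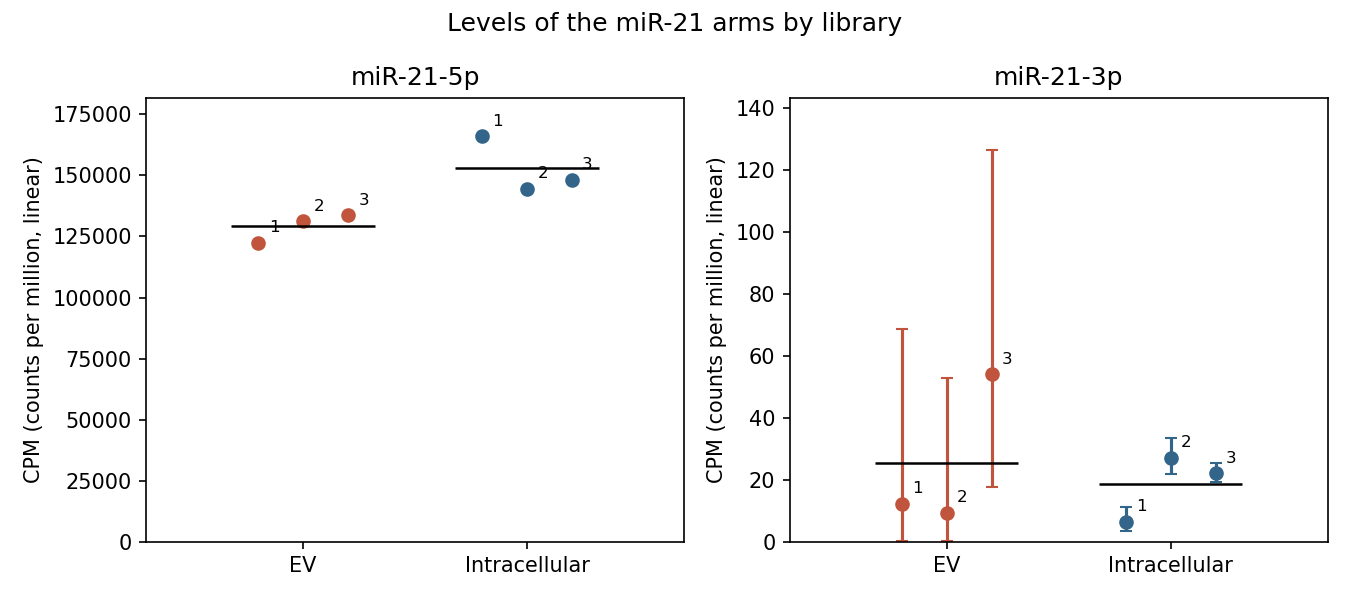
CPM (linear axes from 0) of miR-21-5p on the left and miR-21-3p on the right, with 1 point per library, its replicate number beside it and the mean of each group as a line; bars on the right are exact 95% binomial intervals, which cover counting error only. The EV libraries of miR-21-5p lie at 122434 to 133761 CPM, below the Intracellular ones at 144604 to 166044, while the miR-21-3p intervals of the EV libraries span most of the panel.

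In the edgeR quasi-likelihood test with TMM scaling, which sets the bulk of tested miRNAs equal between libraries, miR-21-5p was lower in EV by a log2 fold change of -0.97 (SE 0.35, 95% interval -1.70 to -0.24, adjusted p = 0.0319). A call at an adjusted p under 0.05 was made for 42.7% of all tested miRNAs, and a lower call for 17.1%. With each library scaled by its total count, the log2 fold change was -0.24 (SE 0.10, adjusted p = 0.0505, or 0.0476 with totals taken over all rows), where 33.5% of tested miRNAs were called and 0.915% were called lower. The median of all tested miRNAs moved from -0.06 to 0.55 between these scalings, a shift of 0.61, and relative to it miR-21-5p stood at -0.91 and -0.79. Its log2 fold change was thus the 42nd lowest of 328 with TMM and the 50th lowest with total counts. The sign was negative under both.

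The size of this difference rested in part on Intracellular replicate 1. That library had a TMM factor of 0.56, against 0.93 to 1.35 in the others, and miR-21-5p with the 9 other most abundant miRNAs took 78.9% of its counts, against 71.6% to 72.2% in the other Intracellular libraries and 63.9% to 66.2% in EV. Without it the log2 fold change was -0.53 (SE 0.09, adjusted p = 7.10e-06) with TMM and -0.18 (adjusted p = 0.0437) with total counts. The call with TMM was lost without EV replicate 1, 2 or 3 (adjusted p = 0.155, 0.114 and 0.0755) and without Intracellular replicate 3 (adjusted p = 0.0501), with log2 fold changes of -1.09 to -0.89.

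**Figure D2:**
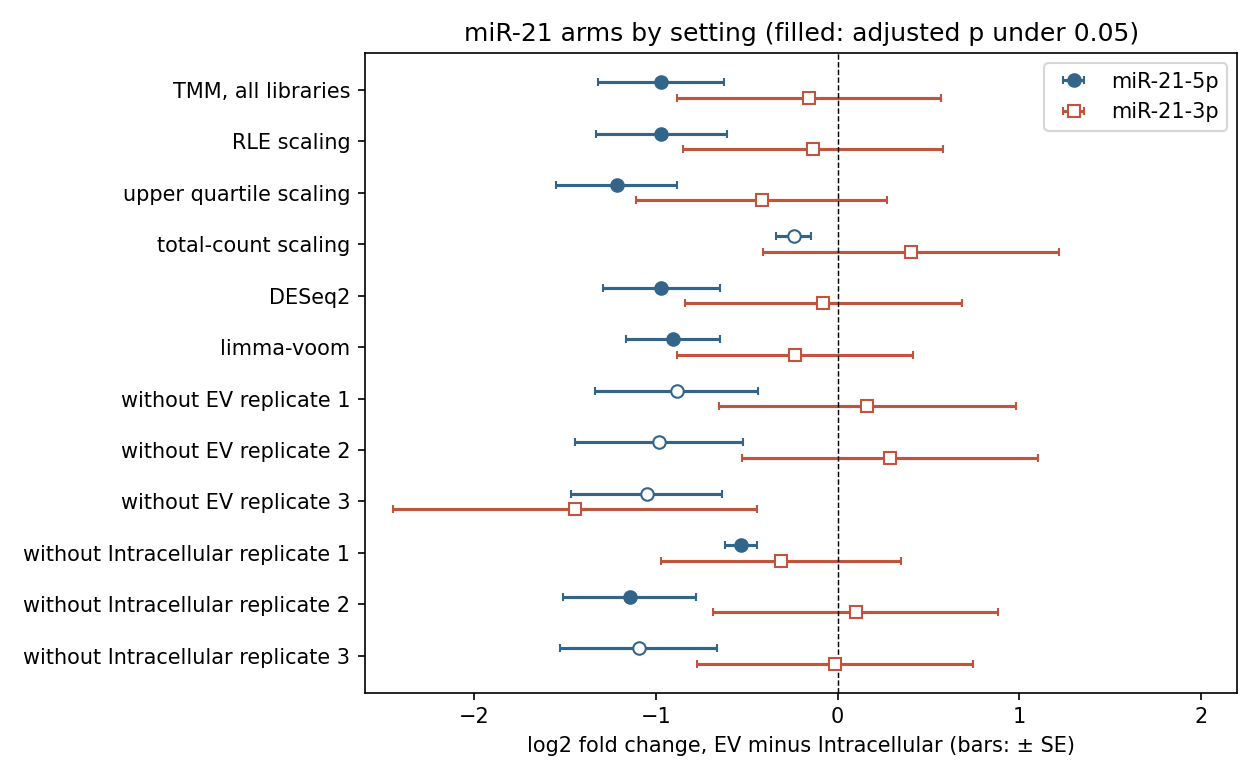
Log2 fold change of each arm, EV minus Intracellular, on the x axis (bars ± SE) under 12 settings named on the y axis; filled symbols have an adjusted p under 0.05. miR-21-5p is below 0 in each setting shown, from -1.21 with upper quartile scaling to -0.24 with total counts, and miR-21-3p lies on both sides of 0 and is filled in none.

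A ratio between miRNAs of the same library needs no scaling, so miR-21-5p was set against the 9 other most abundant miRNAs by the average of both group means. This choice leaves out miR-152-3p, which in EV alone was more abundant than 5 of the 9 (33332 CPM, against 7535 in the Intracellular mean). The log2 ratio of miR-21-5p to the geometric mean of the 9 was 1.51, 1.64 and 1.54 in EV replicates 1, 2 and 3, and 1.75, 1.60 and 1.65 in Intracellular replicates 1, 2 and 3. EV replicate 2 lay above Intracellular replicate 2, so the groups overlapped. The difference of -0.10 lay near the spread within the groups (SD 0.07 in EV and 0.08 in Intracellular, n = 3; exact permutation p = 0.2). Against 19 other abundant miRNAs in place of 9 the difference was -0.32 (exact permutation p = 0.1), and against 4 it was 0.0081 (exact permutation p = 0.8). With TMM, all of the 9 but miR-143-3p and let-7c-5p were themselves called lower in EV, against 17.1% of all tested miRNAs. The log2 fold changes of those called were -1.14 to -0.68. The ratio to the 9 thus compares miR-21-5p with miRNAs that were mostly called lower as well under that scaling.

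Single peers were compared in the same way. Against miR-143-3p, an abundant miRNA of mesenchymal cells, the log2 ratio was -0.61 ± 0.16 in the vesicles and -0.52 ± 0.06 in the cells (SD, n = 3), with an exact permutation p of 0.6. Against miR-99a-5p it was 2.40 ± 0.14 and 2.38 ± 0.03 (exact permutation p = 0.9). The groups did not overlap for 2 of the 9 peers, both of the let-7 family, and in opposite directions. The ratio to let-7c-5p was lower in EV, at 2.11 ± 0.07 against 2.60 ± 0.18, and the ratio to let-7f-5p was higher in EV, at 1.38 ± 0.04 against 1.21 ± 0.03 (SD, n = 3; exact permutation p = 0.1 each, and 9 peers were compared). The ratios to miR-26a-5p and miR-27b-3p spread most, with Intracellular replicate 1 at 3.01 and 3.20 and the other Intracellular libraries at 2.26 to 2.52.

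**Figure D3:**
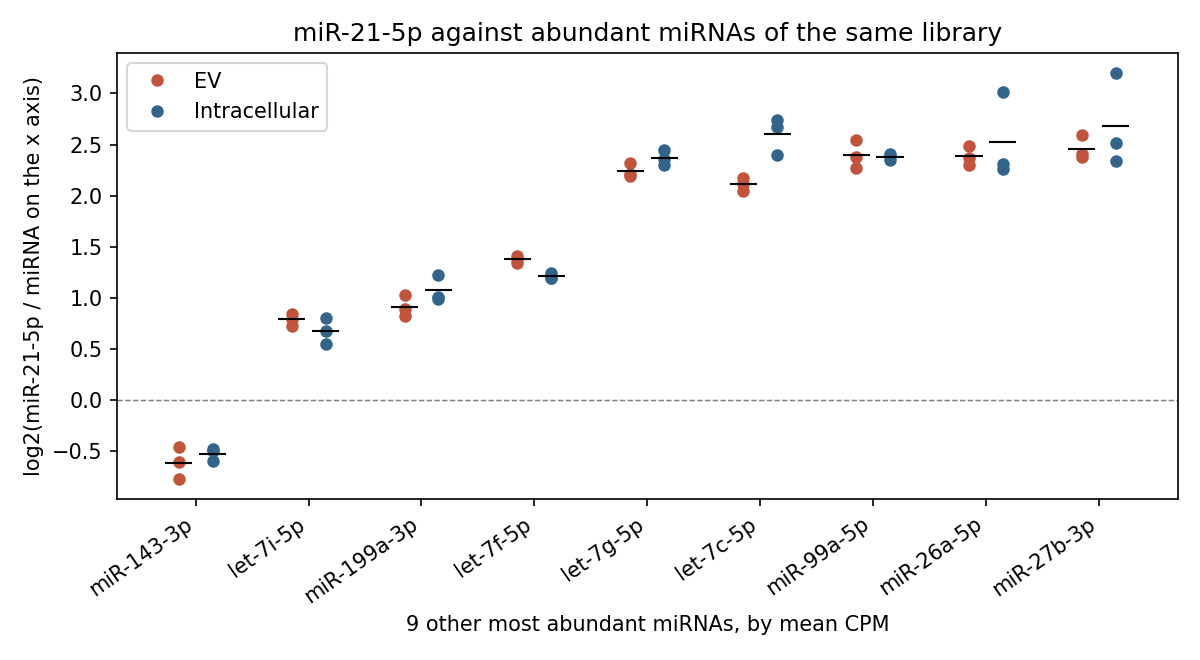
Log2 ratio of miR-21-5p to each of the 9 other most abundant miRNAs (x axis), with 1 point per library, EV on the left and Intracellular on the right of each name, and means as lines; the dashed line marks equal counts. The groups overlap for 7 of the 9, and only let-7f-5p and let-7c-5p stand apart.

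The miRNAs whose levels followed miR-21-5p most closely over the 6 libraries were let-7d-5p, miR-99a-5p, let-7g-5p and let-7f-5p. Likeness was the root mean square difference of log2(CPM + 1), each miRNA centred on its own mean, among 219 tested miRNAs of at least 50 CPM. It was 0.067, 0.080, 0.087 and 0.087 for these, against a median of 0.62 for all. let-7d-5p had 3891 ± 216 CPM in the vesicles against 4304 ± 330 in the cells, and miR-99a-5p had 24544 ± 1733 against 29372 ± 2199 CPM (SD, n = 3). With TMM each of the miRNAs named here was called lower in EV, at log2 fold changes of -1.14 to -0.86, against 17.1% of all tested miRNAs. These miRNAs were chosen on the same 6 libraries, so their difference between the groups is no separate result.

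miR-21-3p was rare in every library. It was counted 1, 1 and 5 times in EV replicates 1, 2 and 3, and 12, 90 and 197 times in Intracellular replicates 1, 2 and 3. Its levels were 12.3, 9.47 and 54.2 CPM in EV, where 1 count stood for 9.47 to 12.3 CPM. In the Intracellular libraries they were 6.53, 27.2 and 22.2 CPM. The groups overlapped, and the exact 95% binomial interval of EV replicate 3 reached from 17.6 to 126 CPM, that of EV replicate 1 from 0.312 to 68.6 CPM. Its mean was 25.3 ± 25.02 CPM in the vesicles and 18.6 ± 10.8 CPM in the cells (SD, n = 3), with an exact permutation p of 0.8.

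The edgeR test gave miR-21-3p a log2 fold change of -0.16 (SE 0.73, 95% interval -1.68 to 1.37, adjusted p = 0.873) with TMM and of 0.40 (SE 0.81, interval -1.25 to 2.06, adjusted p = 0.770) with total counts. A difference was not detectable at this depth, and its direction turned with the scaling. The tested miRNA nearest to it in pattern was miR-376c-3p, at a root mean square difference of 0.44 against a median of 0.96 over 220 miRNAs, followed by miR-1843a-5p (0.54), miR-503-3p (0.56) and the joint row of let-7a-1-3p and let-7c-2-3p (0.65). None of these was as close to it as the 4 named above were to miR-21-5p. The arms cannot be compared in this way, since counting error widens every distance to miR-21-3p, with its 1, 1 and 5 counts in EV. Without EV replicate 3, which held 5 of its 7 EV counts, the value with TMM was -1.44 (SE 1.00, adjusted p = 0.284).

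Among the Intracellular libraries, replicate 1 held less miR-21-3p than the others beyond counting error: its interval of 3.37 to 11.4 CPM lay below those of replicate 2 (21.8 to 33.4 CPM) and replicate 3 (19.2 to 25.6 CPM). In the same library miR-21-5p was at its highest. Of the 328 tested miRNAs, 271 (82.6%) were also lower in that library than in both other Intracellular ones. The median log2 difference of all tested miRNAs was -0.74, against 0.18 for miR-21-5p and -1.77 for miR-21-3p.

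The guide outnumbered the passenger by a wide margin on both sides. There were 5163 counts of miR-21-5p for each of miR-21-3p over the EV libraries together, and 7017 over the Intracellular libraries. By library these were 9943, 13850 and 2470 in EV replicates 1, 2 and 3, and 25447, 5323 and 6668 in Intracellular replicates 1, 2 and 3. The lowest ratio came from EV replicate 3, with 5 passenger counts, and the highest from Intracellular replicate 1, with 12. EV replicates 1 and 2 had fewer, 1 passenger count each. As a share of both arms, miR-21-3p made up 0.0194% in EV (7 counts, exact 95% binomial interval 0.00779% to 0.0399%) and 0.0142% in Intracellular libraries (299 counts, 0.0127% to 0.0160%). At the Intracellular share, 5.15 counts would have been found in EV.

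The log2 ratio of miR-21-3p to miR-21-5p, with 1 count added to each, was -12.28, -12.76 and -11.01 in EV replicates 1, 2 and 3. It was -14.52, -12.36 and -12.70 in Intracellular replicates 1, 2 and 3. EV replicate 2 lay within the range of the Intracellular libraries, and EV replicates 1 and 3 lay above it. The means were -12.01 ± 0.90 and -13.19 ± 1.16 (SD, n = 3), a difference of 1.18 (exact permutation p = 0.3). The size depended on the added count: with 0.25 added the difference was 0.70 (exact permutation p = 0.6), and with none 0.47 (exact permutation p = 0.7). Without Intracellular replicate 1 the difference was 0.51, and without EV replicate 3 it was 0.67. With no passenger count at all, the ratio would have read -13.76 to -13.28 in the EV libraries, so a lower share of miR-21-3p in EV could hardly have been seen.

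The arm ratio was also tested in edgeR with diffSpliceDGE on the TMM fit. It compares the arms of a precursor in place of the exons of a gene. The size given is the log2 fold change of the 3p arm minus that of the 5p arm. For miR-21 these lay nearer to each other with total counts (0.40 and -0.24) than with TMM (-0.16 and -0.97). The size thus depends on the scaling, and the test was run with TMM alone. For the miR-21 hairpin the log2 ratio of 3p to 5p was 0.82 higher in EV (SE 0.67, 95% interval -0.54 to 2.17, adjusted p = 0.360), and -0.39 (adjusted p = 0.802) without EV replicate 3. A difference was called for 25 of 73 precursors with both arms tested (34.2%). The interval for miR-21 holds both an unchanged ratio and a 4-fold higher share of the passenger in vesicles.

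miR-21 was among the most lopsided of these precursors. Of the 73, its mean log2 ratio of the minor to the major arm was the second lowest in Intracellular libraries, after let-7i (-13.23), and the lowest in EV, where let-7i stood at -11.31. The SDs in EV were 0.90 for miR-21 and 1.02 for let-7i (n = 3). In EV replicate 1 the order was the other way, at -12.28 for miR-21 and -12.48 for let-7i. The order of these hairpins in EV is therefore not settled. The median of the other 72 was -2.69 in Intracellular and -2.57 in EV libraries. The let-7i hairpin also had 7 passenger counts in EV, and its ratio of 3p to 5p was called higher there (log2 difference 1.86, SE 0.74, adjusted p = 0.0479). That its result differs from that of miR-21 was not tested. The most abundant hairpin, miR-143, was called with a higher share of its minor 5p arm in EV (log2 difference of -1.47 in the ratio of 3p to 5p, SE 0.26, adjusted p = 1.82e-05), from 164 counts of that arm. Of the 9 other hairpins with the most counts, 4 were called. The remaining calls were miR-152, with a log2 difference of 2.53 (adjusted p = 4.27e-08), and miR-127, with -1.48 (adjusted p = 8.53e-05).

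These 73 leave out hairpins whose passenger was too rare to be tested. Among all 186 hairpins with a row for each arm, miR-21 had the sixth lowest ratio of pooled Intracellular counts, 299 to 2097967. Lower ratios were found for miR-26a (2 to 403075), let-7g (5 to 395965), miR-100 (3 to 135380), miR-99a (14 to 406519) and let-7i (136 to 1258132). Such ratios can be seen only for abundant guides. Adapter ligation also favours some sequences over others, so ratios between arms are ratios of counts, not of molecules, and the order of hairpins by this ratio includes that bias.

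**Figure D4:**
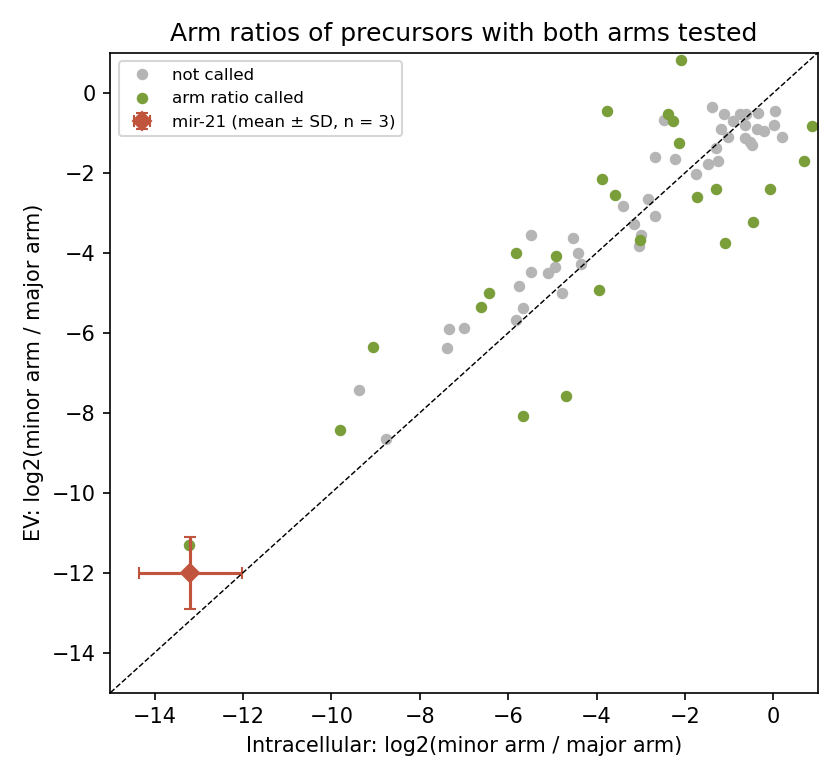
Mean log2 ratio of minor to major arm in Intracellular (x axis) and EV libraries (y axis) for 73 precursors with both arms tested, green where the arm ratio was called different and grey elsewhere; the diamond is miR-21 with SD bars (n = 3) and the dashed line marks equal ratios. miR-21 lies at -13.19 and -12.01 in the lower left corner beside let-7i, and the SDs of its 2 means are 1.16 and 0.90.

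The next 3 lists are read against all 328 tested miRNAs, of which TMM scaling called 25.6% higher and 17.1% lower, and total-count scaling called 33.5% in either direction and 0.915% lower. Of 14 tested miRNAs from a literature list of pro-fibrotic ones, which leaves out miR-21 itself, TMM scaling gave 4 higher and 3 lower calls in EV, and total-count scaling gave 6 and 0. The median log2 fold change of the 14 was 0.25, against -0.06 for all tested miRNAs, and 0.86 against 0.55 with total counts. miR-199a-5p, processed under TGF-beta signalling as miR-21 is, was lower by -1.04 (SE 0.25, adjusted p = 0.00300), and miR-199a-3p by -0.78 (adjusted p = 0.0454), neither called with total counts. miR-27a-3p was higher by 0.51 (adjusted p = 0.0417).

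Of 14 tested anti-fibrotic miRNAs, TMM gave 3 higher and 6 lower calls and total counts gave 4 and 0, with a median of -0.42 under TMM and 0.17 under total counts. The most abundant over both groups were miR-26a-5p at -0.75 (adjusted p = 0.0213), miR-24-3p at 0.20 (adjusted p = 0.527) and let-7d-5p at -0.87 (adjusted p = 0.00876). In EV alone miR-29a-3p, named after its values were seen, was more abundant than let-7d-5p, and it was called higher (4930 CPM, against 996 in the Intracellular mean; adjusted p = 3.88e-07). Of 13 tested miRNAs of nerve injury, TMM gave 6 higher and 2 lower calls and total counts gave 7 and 0, with a median of 0.63 under TMM and 1.21 under total counts. The most abundant over both groups were miR-221-3p at -0.51 (adjusted p = 0.0406), miR-9a-5p at -0.89 (adjusted p = 0.00430) and miR-431 at 0.18 (adjusted p = 0.535).

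The labelled cell type was checked against miRNAs of mesenchymal cells, a list of 10 that took 33.3% to 36.6% of EV counts and 35.5% to 36.7% of Intracellular counts. Most of this was miR-143-3p, at a mean of 197030 CPM in EV and 219151 in Intracellular libraries. Of its 9 tested members TMM called 2 higher in EV and 6 lower (25.6% and 17.1% of all tested miRNAs), and total counts 2 and 0. Lists for other sources took less than the mesenchymal list in every library. The 4 miRNAs of liver and serum took 1.31% to 1.57% of EV counts against 0.0635% to 0.0701% of Intracellular counts. Most of the EV share was miR-122-5p, at a mean of 12119 CPM against 195 in the cells. miR-148a-3p was also called higher in EV, and miR-192-5p and miR-194-5p were not called. The 3 erythroid miRNAs took 0.0152% to 0.0222% of EV counts against 0.000226% to 0.000598% of Intracellular counts. Leukocyte miRNAs took 0.0563% to 0.0767% and 0.0228% to 0.0781%, and endothelial ones 0.0260% to 0.0436% and 0.0141% to 0.0390%. Epithelial, muscle, neuronal and myelinating glia lists reached at most 0.375% in any library. The part of these sources in the levels of miR-21 was not tested.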

How the data were processed

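Whole-number counts per mature miRNA and TPM values were deposited by the authors for 3 EV and 3 Intracellular libraries. The submitters' processing notes name cutadapt and the build Rnor_6.0; no source used here gives the aligner, the miRNA database or the counter. The TPM table of the authors equals counts scaled to 1000000 per library (largest difference 4.8e-05), so CPM and TPM are the same here. No molecular identifiers are named, so intervals cover counting error only.

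Library totals were 81211 to 105578 counts in EV and 1839047 to 8859302 in Intracellular libraries. Counts were tested with edgeR 4.0.16 in R 4.3.3 (quasi-likelihood, robust, TMM, filterByExpr with minimum count 10 and minimum total 15, 2-sided, Benjamini-Hochberg over all tested rows, threshold 0.05). The cutoff of filterByExpr is a CPM set from the median library size. A single count stood for 9.47 to 12.3 CPM in EV and for 0.113 to 0.544 CPM in Intracellular libraries. The cutoff thus asked for far fewer counts in an EV library, and this holds for all tested rows. The row of miR-21-3p passed the cutoff, although it had 1, 1 and 5 counts in EV replicates 1, 2 and 3. Arm ratios used edgeR's diffSpliceDGE on pairs of rows named -5p and -3p. Library values of the 2 groups were compared with exact permutation tests, 2-sided (scipy 1.17.1). Scripts were tested on simulated data. Alternatives used DESeq2 1.42.0, limma 3.58.1, other scalings and filters, a replicate block and left-out libraries.

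The members and lists were chosen with earlier results of these data known. Named miRNAs were both arms, any that share a seed with them, 9 abundant peers, the 4 nearest in pattern to each arm, abundant precursors and up to 3 of each literature list. The precursors lower than miR-21 in arm ratio were named after their values were seen.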

Additional observations from a re-analysis of the deposited data

How the results depend on the processing

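The log2 fold change of miR-21-5p was below 0 in all 25 alternatives run, and 13 of them gave an adjusted p under 0.05. The call was lost with total-count scaling (-0.24), with at least 10 counts in at least 3 libraries (-0.84, adjusted p = 0.0560) and with known miRNAs alone (-0.85, adjusted p = 0.0607). Leaving out 1 library with the tested miRNAs kept gave -1.14 to -0.53, with adjusted p from 7.10e-06 to 0.155. With the filter applied again, the call was lost without EV replicates 1, 2 and 3 (-0.95, -1.02 and -1.12) and Intracellular replicate 3 (-0.98). With library totals over all rows, an alternative chosen after seeing the data, total-count scaling gave -0.24 and an adjusted p of 0.0476. The log2 fold change of miR-21-3p was not called in any of 22 alternatives and turned to 0.40 with total-count scaling (0.40 with totals over all rows and 0.039 without Intracellular replicate 1), to 0.21 with limma on log2(TPM + 1), and ranged from -1.44 to 0.29 without 1 library. With the filter applied again it was 0.11 and 0.25 without EV replicates 1 and 2. It did not pass the filter applied again without any 1 of the Intracellular libraries. The arm ratio difference ranged from -0.39 to 1.27 without 1 library, and that per library from 0.51 to 1.59. The difference against abundant peers was 0.0081 with 4 peers and -0.14 to -0.06 without 1 library.

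Over all 328 tested miRNAs, 84 were called higher and 56 lower. Some alternatives tested another number of miRNAs, so their counts are given with it. Higher calls numbered 197 of 1071 with no filter except 1 count in all, and 62 to 91 of 328 without 1 library. Lower calls numbered 3 with total-count scaling (4 with totals over all rows, 21 without Intracellular replicate 1), 92 with upper quartile scaling and 4 with limma on log2(TPM + 1). They numbered 36 of 307 with at least 10 counts in 3 libraries, 37 of 290 with known miRNAs alone, and 18 to 58 of 328 without 1 library. With the filter applied again, 26 of 376 were lower without EV replicate 1. Without Intracellular replicate 2 or 3, 50 of 195 were higher and 27 of 195 lower.

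Whether replicate numbers pair the samples is not given. Deviations from the group means correlated at 0.024, 0.021 and 0.016 between libraries of the same number. Between libraries of different numbers they correlated at -0.083 to 0.058. Counting error in the EV libraries, with 81211 to 105578 counts each, could hide a pairing, so these values do not decide it. With a replicate block miR-21-5p was at -0.90 (adjusted p = 0.128), the arm ratio difference at 0.81 (adjusted p = 0.452) and lower calls at 46. Depth limits miR-21-3p, which had 1 to 5 counts in each EV library.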

Other observations

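miR-21-5p was 1 of 12 tested miRNAs whose CPM in every EV library lay below that in every Intracellular library. Its members with the highest Intracellular levels were miR-143-3p, miR-21-5p, let-7i-5p, let-7f-5p and miR-99a-5p, with log2 ratios of the group means of -0.15, -0.24, -0.37, -0.41 and -0.26. miR-127-3p, of an imprinted cluster, stood at -0.93, and let-7e-5p and miR-98-5p, both of the let-7 family, at -0.48 and -0.32. The others, miR-361-3p, miR-30c-2-3p, miR-592 and miR-130b-5p, had at most 197 CPM in the mean of either group. The set was described after its values were seen.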
